A study of Caenorhabditis elegans with 6 samples.

Results

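Nuclear genes for the subunits of the mitochondrial respiratory chain were followed in dissected gonads of *Caenorhabditis elegans* that lack SET-2 function and of wildtype animals. The genes were chosen by name as nuclear-encoded subunits of complexes I to V, not by their measured levels, but with earlier results of these data known. The list holds 40 genes: 13 of complex I, 4 of complex II, 7 of complex III, 7 of complex IV and 9 of complex V. All 40 were found among the 46772 genes of the count table, and 40 of 40 passed the filter on low counts that left 9431 genes for testing.

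Complexes I and II of the respiratory chain take electrons from NADH and from succinate and hand them to ubiquinone. Complex III moves them on to cytochrome c, complex IV passes them to oxygen, and complex V, the ATP synthase, makes ATP from the proton gradient that complexes I, III and IV build. Complex II is made from nuclear genes alone, while the others also hold subunits encoded by mitochondrial DNA. Most mitochondrial DNA of the adult hermaphrodite is in the germline, and the oocyte hands its mitochondria on to the embryo. Chromosome X is weakly transcribed through much of worm germline development, and several metabolic genes on X have a copy on an autosome that serves the germline.

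The study compared gonads of *set-2(bn129)* animals with gonads of wildtype (WT, strain N2) animals, in 3 libraries of each genotype. The question was how gene expression in the germline differs when SET-2 is lost. SET-2 is the worm homologue of SET1, the methyltransferase of the COMPASS complex that methylates histone H3 on lysine 4, and *bn129* is a loss-of-function allele. Mutant animals were homozygotes born to heterozygous mothers, so maternal SET-2 may have been supplied to them. Animals of both genotypes were dissected as young adults, 12 h past L4. Each sample pooled gonads from 5 to 7 of them, severed at the bend of the gonad arm, and the distal part was used. Total RNA was depleted of ribosomal RNA and sequenced as single reads of 50 bases. The design calls the 3 libraries of a genotype biological replicates, and p-values measure the spread between these libraries.

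Libraries held 23403396 to 30724547 counts for *set-2* and 24814518 to 25231478 counts for WT. Ribosomal RNA genes kept 8.06% to 10.6% of counts in *set-2* libraries and 13.6% to 14.9% in WT libraries. The *set-2* transcript itself stood at 93.5 ± 5.98 CPM (counts scaled to library size) in *set-2* libraries and 153.5 ± 6.21 CPM in WT libraries (SD, n = 3 each). That is a log2 fold change of −0.71 (edgeR's quasi-likelihood test, adjusted p = 2.88e-06), so the labels and the targeted gene run the same way. The summed level of distal and meiotic germline markers was 3954 to 4253 CPM in *set-2* and 4003 to 4268 CPM in WT, with 15 of 15 detected, and that of oocyte markers 9429 to 9697 CPM in *set-2* and 9771 to 10000 CPM in WT, with 12 of 12 detected. Sperm markers summed to 4.86 to 6.47 CPM in *set-2* and 5.82 to 6.70 CPM in WT. Of these, *msp-10*, *msp-19*, *msp-142* and *spe-42* were at 0 in all libraries. Reads that map to several places were removed, so a count of 0 does not show absence for a gene with near-identical copies. At an adjusted p of at most 0.05, 2 of the 15 distal and meiotic markers were higher and 4 lower. Of the 12 oocyte markers 0 were higher and 4 lower, and their sums did not overlap between genotypes. Of the 3 sperm markers tested 1 was higher and 1 lower, with log2 fold changes that ran from −0.94 to 3.08. Among all genes tested 20.3% were higher and 21.1% lower. Sums of markers of tissues outside the germline were lower in the mutant too. Body wall muscle markers had summed levels of 298.4 to 348.8 CPM in *set-2* and 398.2 to 687.0 CPM in WT, with 18 of 20 lower and 0 higher. Intestine markers summed to 114.8 to 223.4 CPM in *set-2* and 329.6 to 758.2 CPM in WT, with 12 of 14 tested lower and *mtl-1* at 0 throughout. Hypodermis markers summed to 149.5 to 171.7 CPM in *set-2* and 208.2 to 383.3 CPM in WT, with 4 of 6 tested lower. Somatic gonad markers summed to 96.3 to 100 CPM in *set-2* and 130.7 to 142.6 CPM in WT. Of these, 2 of 8 tested were lower (25%), near the 21.1% of all genes tested. Neuron markers summed to 69.2 to 71.9 CPM in *set-2* and 76.7 to 80.4 CPM in WT, with 3 of 8 tested lower. In these 3 lists 0 markers were higher. In RNA from whole tissue pieces, fewer cells of a type and less RNA per cell cannot be told apart.

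Most respiratory chain subunits kept close to their WT level in *set-2* gonads, and those that moved went in both directions. At an adjusted p of at most 0.05, 8 of the 40 genes rose, 10 fell and 22 did not pass the test. Among all genes tested, 20.3% rose and 21.1% fell, so the share of subunit genes that moved was near that of the transcriptome. Without *set-2* replicate 1, 5 subunit genes were called higher and 13 lower. The median log2 fold change of the 40 genes was −0.04, beside −9e-04 over all genes tested. Changes were small. When a log2 fold change beyond ±0.58 was also required, 3 subunit genes remained, *gas-1*, *ucr-2.1* and *ucr-2.2*, all higher and all on chromosome X, and 0 were lower. By the same rule 15.3% of all genes tested were called. The 95% confidence interval of the log2 fold change lay within −0.58 and 0.58 for 36 of the 40 genes, the exceptions being *gas-1*, *ucr-2.1*, *ucr-2.2* and *asb-2*. The *set-2* and WT libraries did not overlap for 20 of the 40 genes, 9 with *set-2* above WT and 11 with *set-2* below, beside 52.9% of all genes tested.

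High expression goes with small folds in these data. Of the 40 genes, 25 were in the highest of 5 equal classes of mean expression, 9 in the next and 6 in the middle one. In the highest class 48.6% of genes were called at the adjusted p alone, but 2.12% were called once the fold was required as well. In the middle class, which held *gas-1*, *ucr-2.1* and *ucr-2.2*, these shares were 44.8% and 12.2%.

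**Figure D1:**
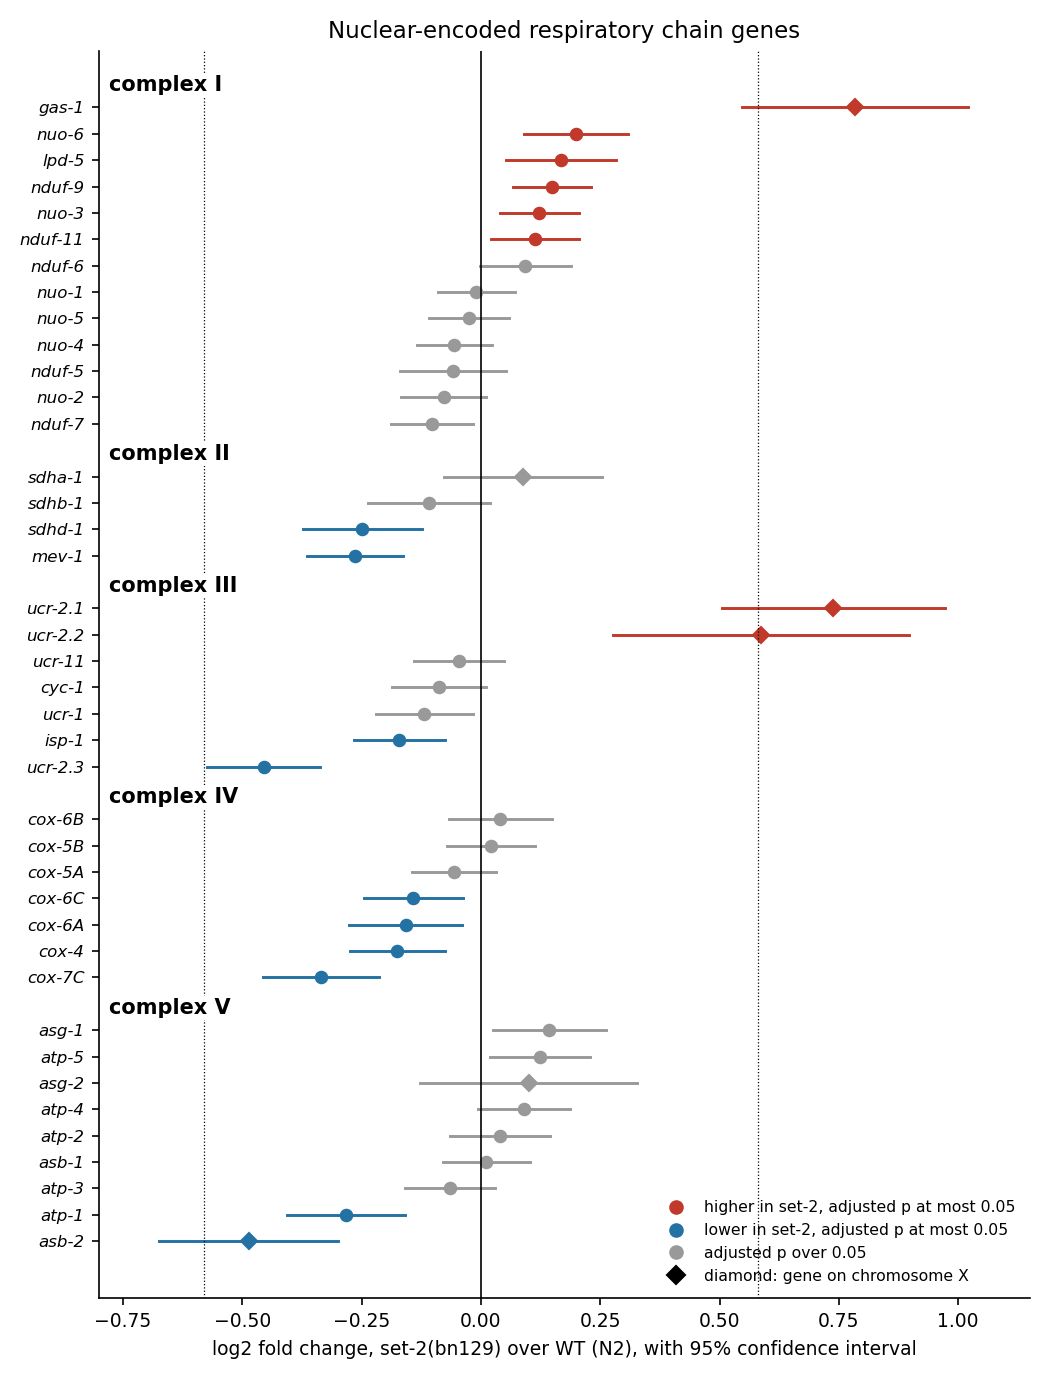
Log2 fold change of each of the 40 subunit genes in *set-2(bn129)* over WT gonads, with the 95% confidence interval as a bar, by complex and in order of size. Dotted lines mark −0.58 and 0.58, diamonds mark genes on chromosome X, and the points run from −0.49 for *asb-2* to 0.78 for *gas-1*.

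Subunit genes were strongly expressed. Levels compared between genes are given per kilobase of exon (RPKM). In *set-2* gonads the 40 genes ranged from 8.94 RPKM for *sdha-1* to 944.7 RPKM for *atp-2*, with a median of 164.5. In WT gonads they ranged from 6.88 RPKM for *ucr-2.2* to 919.1 RPKM for *atp-2*, the catalytic β subunit of the ATP synthase, with a median of 170.8 RPKM beside 19.7 RPKM for all genes tested. Of the 40 genes, 36 stood above that median gene in WT and 29 stood above the 90th percentile of genes. The complexes differed in level. Median levels were 139.6 RPKM in *set-2* and 136.2 RPKM in WT for complex I, and 72.8 RPKM in *set-2* and 86.9 RPKM in WT for complex II. For complex III they were 159.6 RPKM in *set-2* and 169.6 RPKM in WT, for complex IV 270.3 RPKM in *set-2* and 301.5 RPKM in WT, and for complex V 380.4 RPKM in *set-2* and 368.6 RPKM in WT. Complexes IV and V had the highest medians in both genotypes.

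Chromosome of origin divided the levels. The 6 subunit genes on X, *gas-1*, *sdha-1*, *ucr-2.1*, *ucr-2.2*, *asb-2* and *asg-2*, ranged from 6.88 to 28.4 RPKM in WT with a median of 9.16 RPKM. The 34 on autosomes ranged from 77.3 to 919.1 RPKM with a median of 188.0 RPKM, so the levels of X-linked and autosomal subunits did not overlap. Among all genes tested, those on X had a median of 2.47 RPKM in WT and those on autosomes 28.7 RPKM. Of the X-linked subunits 3 rose, 1 fell and 2 did not pass the test, with a median log2 fold change of 0.34. Of the autosomal subunits 5 rose, 9 fell and 20 did not pass, with a median of −0.06. With single libraries left out 2 to 7 autosomal subunits rose, the fewest without *set-2* replicate 1, and 3 rose without *set-2* replicate 3, WT replicate 1 or WT replicate 2. Over all genes tested on X, 17.5% rose and 18.1% fell, with a median log2 fold change of −0.02, and over all those on autosomes 20.7% rose and 21.5% fell.

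**Figure D2:**
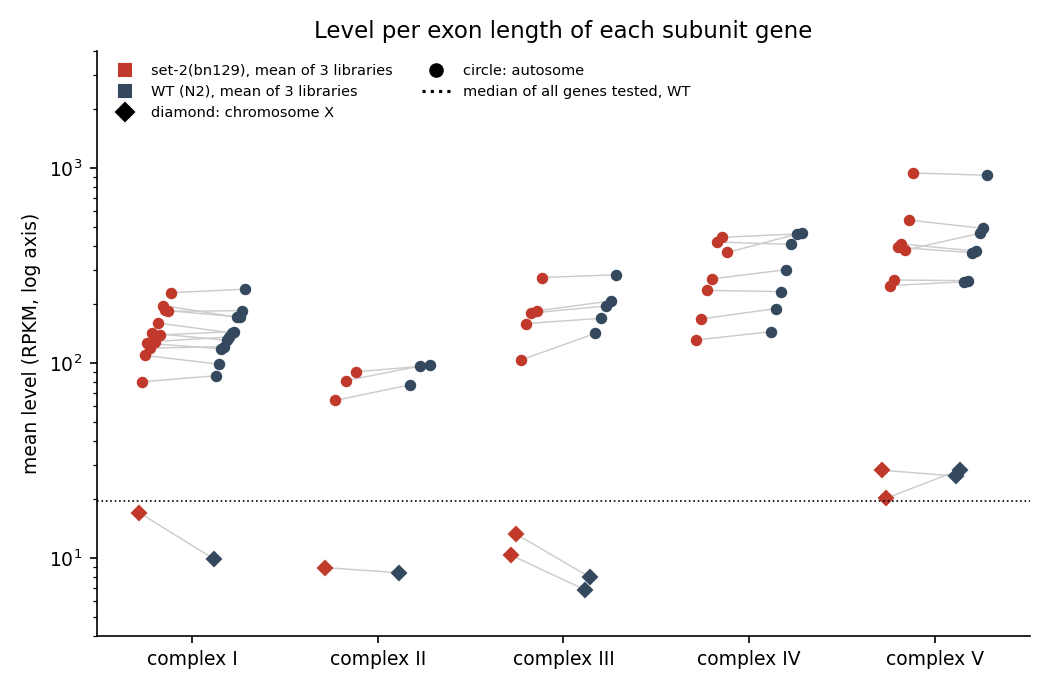
Mean level of each subunit gene in RPKM, on a log axis, in *set-2(bn129)* (left of each pair) and WT gonads (right), joined by a line per gene. The 6 genes on chromosome X, drawn as diamonds, sit at 6.88 to 28.4 RPKM in WT, and the 34 autosomal genes all lie above the dotted median of all genes tested in WT, 19.7 RPKM.

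Complex I, the NADH dehydrogenase, held most of the subunit genes that rose. Of its 13 listed genes 6 rose (46.2%) and 0 fell, beside 20.3% higher and 21.1% lower among all genes tested. The list leaves out *nduf-2.2*, the autosomal paralog of *gas-1*, which was called lower with a log2 fold change of −0.15. The median log2 fold change of the 13 listed genes was 0.09. Without *set-2* replicate 1, 3 were called higher and 2 lower, and without *set-2* replicate 3, WT replicate 1 or WT replicate 2, 4 were called higher. The largest rise was that of *gas-1*, an X-linked gene for a core subunit, in which a mutation makes worms hypersensitive to volatile anaesthetics. *gas-1* had 25.5, 26.7 and 34.1 CPM in the *set-2* libraries, against 15.9, 18.01 and 16.4 CPM in the WT libraries. Each mutant library lay above each WT library, with *set-2* replicate 3 the highest. The log2 fold change was 0.78 (SE 0.108, adjusted p = 2.35e-04). A protein-coding gene on the opposite strand, K09A9.6, shares 26 exon bases with *gas-1* but stood at 0.210 CPM in *set-2* and 0.445 CPM in WT.

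The other 4 listed core subunit genes of complex I did not pass the test. *nuo-1*, which encodes the flavin-binding subunit, averaged 296.0 ± 5.68 CPM in *set-2* and 297.9 ± 7.28 CPM in WT (SD, n = 3 each). Its log2 fold change of −0.01 had an interval of −0.09 to 0.07. *nuo-5*, the gene of the largest core subunit, had a log2 fold change of −0.03 (interval −0.11 to 0.06). *nuo-2* stood at −0.08 (−0.17 to 0.01) and *nduf-7* at −0.10 (−0.19 to −0.02, adjusted p = 0.0533), and both were called lower without *set-2* replicate 1, *nduf-7* in 3 of 13 alternatives. All 4 intervals thus lay well inside the fold threshold.

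Accessory subunits, which surround the core and serve its assembly and stability, made up the rest of the rise. Of these 8 genes 5 were higher and 0 lower, beside 20.3% and 21.1% of all genes tested. *nuo-6*, whose reduction-of-function mutants are long-lived, had 132.3, 119.8 and 132.8 CPM in *set-2* libraries, against 106.2, 112.3 and 116.9 CPM in WT libraries. The log2 fold change was 0.20 (SE 0.0501, adjusted p = 0.00840), with no overlap between genotypes. *lpd-5* averaged 98.9 CPM in *set-2* and 88.0 CPM in WT, a log2 fold change of 0.17 (adjusted p = 0.0236). *nduf-9* averaged 158.2 CPM in *set-2* and 142.7 CPM in WT, a log2 fold change of 0.15 (adjusted p = 0.00797). *nuo-3* and *nduf-11* followed, with log2 fold changes of 0.12 and 0.11 and adjusted p-values of 0.0217 and 0.0475. These 5 rises were of 8.18% to 14.8%, and each set of mutant libraries lay above the WT libraries. Among all genes tested, the genotypes did not overlap for 52.9%. The gap was narrow for *lpd-5*, with 90.4 CPM in the lowest *set-2* library and 90.3 CPM in the highest WT library. For *nduf-11* these values were 205.0 CPM and 203.5 CPM. *nuo-3*, *lpd-5* and *nduf-11* lost their call in 4, 3 and 5 of 13 alternatives. The remaining accessory genes did not pass: *nduf-6* had a log2 fold change of 0.09, *nuo-4* of −0.06 and *nduf-5* of −0.06. Exons of *nduf-6* share 55 bases, 10.4% of their length, with *prpf-4* on the opposite strand, which had 152.4 CPM in *set-2* and 157.8 CPM in WT. Summed per exon length, the listed complex I genes stood at 1766 to 1874 RPKM in *set-2* libraries and 1708 to 1802 RPKM in WT. These ranges overlap. This sum and the complex I median level given above leave out *nduf-2.2*, at 114.9 RPKM in *set-2* and 127.1 RPKM in WT.

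Complex II, the succinate dehydrogenase that also serves the tricarboxylic acid (TCA) cycle, had 2 genes that fell and 0 that rose. That is 50% of its 4 genes lower, beside 21.1% lower and 20.3% higher among all genes tested. Both that fell encode membrane anchors, which bind ubiquinone. *mev-1*, the cytochrome b subunit whose mutant is sensitive to oxygen, had 46.5, 47.7 and 46.4 CPM in *set-2* libraries, against 55.3, 58.7 and 54.9 CPM in WT libraries. All mutant libraries lay below all WT libraries, with a log2 fold change of −0.26 (SE 0.0458, adjusted p = 9.79e-04). *sdhd-1*, the other anchor, averaged 49.1 ± 2.64 CPM in *set-2* and 58.3 ± 3.45 CPM in WT, a log2 fold change of −0.25 (adjusted p = 0.00497). The genes of the catalytic subunits did not pass, and the difference between anchors and catalytic subunits was not tested. *sdhb-1*, the iron-sulphur subunit, had a log2 fold change of −0.11 (interval −0.24 to 0.02), and the flavoprotein gene *sdha-1* one of 0.09 (−0.08 to 0.25). *sdha-1* is on X and had 21.5 CPM in *set-2* and 20.2 CPM in WT. Its autosomal paralog *sdha-2*, not among the 40 genes, had 298.9 CPM in *set-2* and 297.7 CPM in WT, so that *sdha-1* supplied 5.73% of the pair per exon length in *set-2* and 5.43% in WT. Summed per length, the 4 listed genes of complex II were at 231.6 to 252.0 RPKM in *set-2* libraries, below the 270.1 to 285.6 RPKM of WT libraries. This sum and the complex II median given above leave out *sdha-2*, at 146.9 RPKM in *set-2* and 146.3 RPKM in WT.

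Complex III, the cytochrome bc1 complex, had 2 genes that rose and 2 that fell, and 3 of these 4 were copies of one another. Of its 7 genes 28.6% rose and 28.6% fell, beside 20.3% and 21.1% of all genes tested. The core protein known as core 2 is encoded by *ucr-2.1* and *ucr-2.2* on X and by *ucr-2.3* on chromosome III. *ucr-2.1* had 20.5, 17.9 and 18.7 CPM in *set-2* libraries, against 11.3, 12.99 and 9.99 CPM in WT libraries. *ucr-2.2* had 16.5, 16.8 and 11.4 CPM in *set-2* libraries, against 9.24, 10.02 and 10.4 CPM in WT libraries. *ucr-2.3* had 146.2, 145.0 and 128.9 CPM in *set-2* libraries, against 181.3, 193.9 and 200.6 CPM in WT libraries. The genotypes did not overlap for any of the 3 copies, although *set-2* replicate 3 of *ucr-2.2* came near the WT range.

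*ucr-2.1* and *ucr-2.2* rose, with log2 fold changes of 0.74 (SE 0.106, adjusted p = 3.05e-04) and 0.59 (SE 0.141, adjusted p = 0.00661). *ucr-2.3* fell, with a log2 fold change of −0.46 (SE 0.0541, adjusted p = 9.5e-05). *ucr-2.3* remained the main copy: it supplied 81.5% of the set per exon length in *set-2* (range 80.8% to 82.0%) and 90.5% in WT (89.9% to 91.3%). The share of *ucr-2.1* was 10.5% in *set-2* and 5.09% in WT, and that of *ucr-2.2* was 8.09% in *set-2* and 4.38% in WT. The value of *ucr-2.2* ranged from 0.50 to 0.75 over the alternatives tried, and fell short of the fold threshold in 4 of 13, but kept its call at the adjusted p. Its exons share 13 bases with *pkhm-2* on the opposite strand, which rose to 46.8 CPM in *set-2*, against 18.9 CPM in WT (log2 fold change 1.31, adjusted p = 4.08e-05). *ucr-2.3* shares 16 bases with *zer-1* on the opposite strand, which fell with a log2 fold change of −0.37 (adjusted p = 1.27e-04). How far reads of these neighbours enter the counts was not tested. Reads that match more than 1 copy equally well were removed before counting, so stretches shared by the copies are not counted for any of them.

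The other complex III genes moved less. *isp-1*, the Rieske iron-sulphur protein in which a point mutation extends lifespan, had 187.2, 177.1 and 183.4 CPM in *set-2* libraries, against 196.0, 203.5 and 217.0 CPM in WT libraries. It fell, with a log2 fold change of −0.17 (SE 0.0437, adjusted p = 0.00920). *ucr-1*, the partner core protein, had a log2 fold change of −0.12 (interval −0.22 to −0.02, adjusted p = 0.0595), and was called lower without *set-2* replicate 1 or WT replicate 1. *cyc-1*, cytochrome c1, had one of −0.09 (−0.19 to 0.01), and *ucr-11* one of −0.05 (−0.14 to 0.05). In sum, complex III stood at 917.2 to 944.0 RPKM in *set-2* libraries and 978.8 to 1050 RPKM in WT libraries, which do not overlap.

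**Figure D3:**
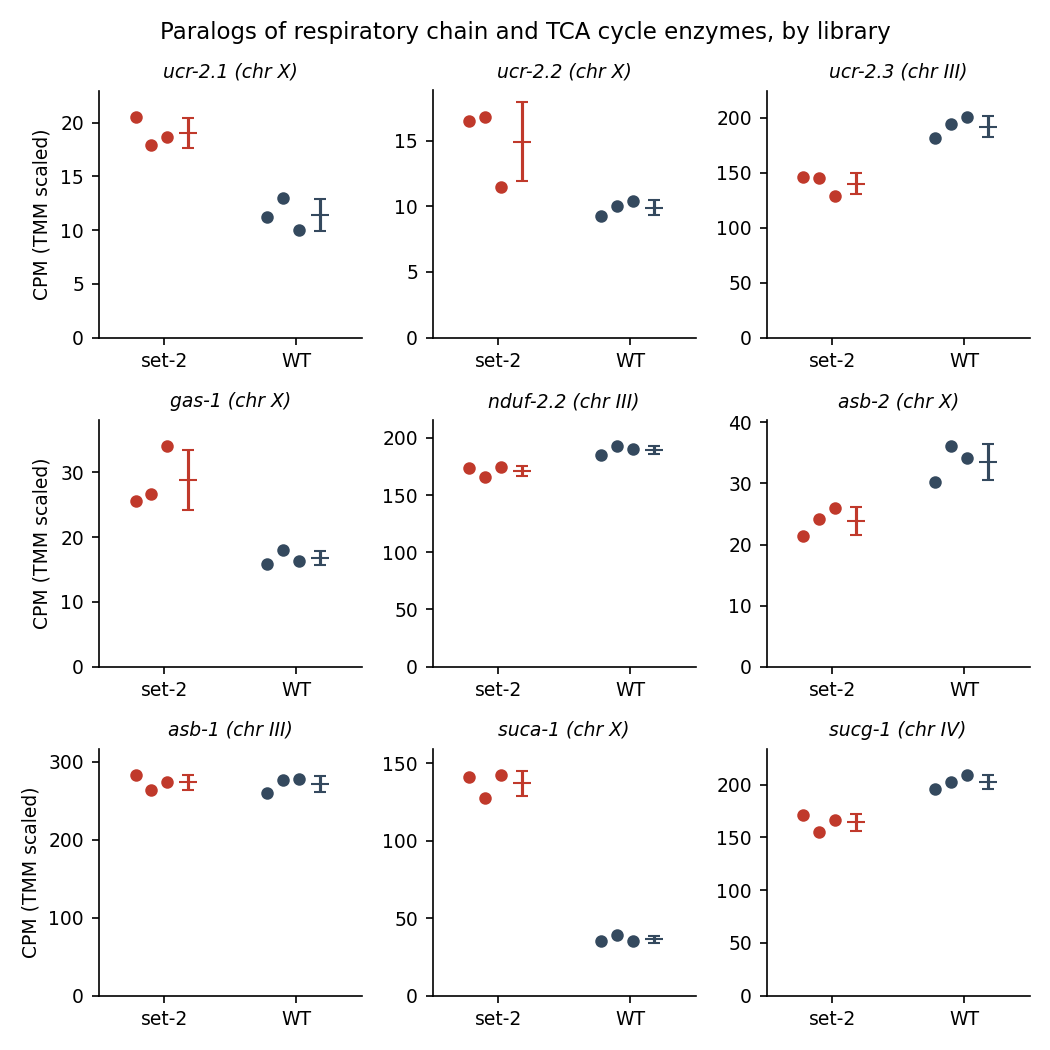
TMM-scaled CPM of paralogous genes in the 3 *set-2(bn129)* (left) and 3 WT libraries (right) as points, with the mean and SD beside them, on axes that start at 0. *ucr-2.1*, *ucr-2.2*, *gas-1* and *suca-1*, all on X, were higher in *set-2* while their autosomal copies *ucr-2.3*, *nduf-2.2* and *sucg-1* were lower. The pair *asb-2* (X) and *asb-1* (autosome) did not do so. Nor did pairs that are not drawn: *sdha-1* (X, log2 fold change 0.09) and *sdha-2* (0.01), and *asg-2* (X, 0.10) and *asg-1* (0.14), did not pass the test. *nduf-2.2* and *sucg-1* were added after their values had been seen.

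Complex IV, cytochrome c oxidase, had 4 of 7 nuclear genes lower (57.1%) and 0 higher, beside 21.1% lower and 20.3% higher among all genes tested. With *set-2* replicate 2, *set-2* replicate 3, WT replicate 2 or WT replicate 3 left out, 2 were called lower. *cox-7C*, a small subunit of the complex, had 151.8, 132.2 and 147.3 CPM in *set-2* libraries, against 170.3, 184.5 and 189.1 CPM in WT libraries. It had the largest fall of the complex, a log2 fold change of −0.33 (SE 0.0554, adjusted p = 7.47e-04), and its genotypes did not overlap. *cox-4* averaged 144.2 ± 6.78 CPM in *set-2* and 163.0 ± 6.89 CPM in WT, a log2 fold change of −0.18 (adjusted p = 0.00958). *cox-6A* and *cox-6C* had log2 fold changes of −0.16 and −0.14, with adjusted p-values of 0.0359 and 0.0331. The libraries of *cox-6A* overlapped between genotypes, and these genes lost their call in 4 and 7 of 13 alternatives. *cox-5A*, at 328.6 CPM in *set-2* and 341.8 CPM in WT, had a log2 fold change of −0.06 (−0.14 to 0.03). *cox-5B* had one of 0.02 (−0.07 to 0.11) and *cox-6B* one of 0.04 (−0.07 to 0.15), and these 3 genes did not pass the test. Summed, the complex IV genes stood at 1913 to 2122 RPKM in *set-2* libraries and 2132 to 2253 RPKM in WT libraries, with a narrow gap between the ranges.

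Complex V held 7 of 9 genes that did not pass the test and 2 that fell. The share that fell, 22.2%, was near the 21.1% of all genes tested. Other scalings, filters or sets of libraries added up to 3 genes called higher, as given with *asg-1*, *atp-5* and *atp-4*. The head of the enzyme is built from α and β subunits in equal number, and the transcript of α fell while that of β did not pass the test. *atp-1*, the α subunit, had 728.2, 756.9 and 832.8 CPM in *set-2* libraries, against 930.6, 990.6 and 898.9 CPM in WT libraries. It fell, with a log2 fold change of −0.28 (SE 0.0563, adjusted p = 0.00224). *atp-2*, the β subunit, had 1871, 1824 and 1772 CPM in *set-2* libraries, against 1698, 1781 and 1840 CPM in WT libraries. These overlap, and the log2 fold change was 0.04 (interval −0.06 to 0.14, adjusted p = 0.532). Per exon length, *atp-1* stood at 0.403 of *atp-2* in *set-2* (range 0.370 to 0.446) and at 0.504 in WT (0.464 to 0.528). The ratio was not tested, and the pair was set side by side after its values had been seen.

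The b subunit of the stalk has a germline copy on chromosome III, *asb-1*, and a copy on X, *asb-2*, known for the soma. *asb-1* had 283.2, 264.4 and 273.7 CPM in *set-2* libraries, against 260.0, 276.7 and 278.3 CPM in WT libraries. It showed no detectable change, with a log2 fold change of 0.01, an interval of −0.08 to 0.10 and an adjusted p of 0.852. *asb-2* had 21.5, 24.2 and 26.0 CPM in *set-2* libraries, against 30.3, 36.1 and 34.1 CPM in WT libraries. It fell by more than any other of the 40 genes, with a log2 fold change of −0.49 (SE 0.0855, adjusted p = 0.00106), and every mutant library was below every WT library. The share of *asb-1* in the pair, per exon length, was 92.9% in *set-2* (range 92.4% to 93.8%) and 90.3% in WT (89.8% to 90.8%). The difference of 2.61 percentage points had p = 0.1 in a two-sided exact permutation test over the libraries, the smallest value that 3 against 3 can give. Body wall muscle and intestine markers, given above, were lower in the same mutant libraries, and their part in the fall of *asb-2* was not tested. WT replicate 1 had the lowest muscle marker levels of the WT libraries for 20 of 20 markers. Leaving it out widens the muscle marker difference between genotypes, so that setting cannot decide this part. With it left out, 6 of the 40 subunit genes were called higher and 11 lower.

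The g subunit, in the membrane part, also has copies on chromosome I and on X. *asg-1* had 263.8, 238.1 and 271.4 CPM in *set-2* libraries, against 223.5, 229.9 and 247.2 CPM in WT libraries. The ranges overlap, and the log2 fold change of 0.14 (interval 0.02 to 0.26) missed the threshold with an adjusted p of 0.0521. The gene was called higher in 7 of 13 alternatives, in which the adjusted p reached 0.00127. *asg-2*, on X, had 14.5, 13.5 and 14.1 CPM in *set-2* libraries, against 11.5, 12.99 and 14.8 CPM in WT libraries, a log2 fold change of 0.10 (−0.13 to 0.33, adjusted p = 0.466). *asg-1* supplied 95.04% of this pair in *set-2* and 94.9% in WT. Of the other stalk genes, *atp-5* had a log2 fold change of 0.12 (0.02 to 0.23, adjusted p = 0.0588; called higher in 6 of 13 alternatives), *atp-4* of 0.09 (−0.01 to 0.19; called in 1) and *atp-3*, the oligomycin sensitivity protein, of −0.06 (−0.16 to 0.03). The summed level of complex V was 3132 to 3286 RPKM in *set-2* libraries and 3074 to 3261 RPKM in WT libraries, which overlap.

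Taking all 40 genes as one sum, they held 8184 to 8538 CPM in *set-2* libraries and 8307 to 8764 CPM in WT libraries. The 12 subunits encoded by mitochondrial DNA, named here by their RefSeq symbols, held 10830 to 13060 CPM in *set-2* and 12410 to 14900 CPM in WT. Of these 12, 1 rose (8.33%), 4 fell (33.3%) and 7 did not pass, beside 20.3% higher and 21.1% lower among all genes tested. *COX3*, a core subunit of complex IV, had 1197, 1100 and 1272 CPM in *set-2* libraries, against 1922, 1619 and 1924 CPM in WT libraries. Its log2 fold change of −0.61 (SE 0.0729, adjusted p = 9.35e-05) passed the fold threshold, but fell short of it without *set-2* replicate 2 (−0.56), WT replicate 1 or WT replicate 3. *COX1*, the catalytic subunit of the same complex and the most abundant of the 12 transcripts, had 3960, 3667 and 4252 CPM in *set-2* libraries, against 5341, 4588 and 5213 CPM in WT libraries. It fell, with a log2 fold change of −0.35 (adjusted p = 0.00275), as did *ND3* of complex I (−0.32, adjusted p = 0.0106) and *CYTB*, the cytochrome b of complex III (−0.23, adjusted p = 0.0220). *CYTB* lost its call in 4 alternatives, each of which left out 1 library. *COX2* and *ATP6* had log2 fold changes of −0.17 and −0.23 and did not pass, with wide intervals of −0.39 to 0.05 and −0.61 to 0.15. Without WT replicate 2 both were called lower, *COX2* at −0.28 (adjusted p = 0.0281) and *ATP6* at −0.45 (adjusted p = 0.00828), and 6 of the 12 genes then fell.

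The mitochondrially encoded complex I genes did not share a direction. *ND4L* had 10.1, 9.51 and 11.4 CPM in *set-2* libraries, against 8.01, 7.69 and 4.71 CPM in WT libraries. It rose, with a log2 fold change of 0.61 (SE 0.174, adjusted p = 0.0158), but with *set-2* replicate 3 left out the adjusted p was 0.0566, and without WT replicate 3 the log2 fold change was 0.40. It was the least abundant of the 12 transcripts. *ND5*, *ND4* and *ND1* had log2 fold changes of 0.18, 0.13 and 0.11, *ND6* one of −0.01 and *ND2* one of −0.15, and none of these passed. *ND5* was called higher in 4 of 13 alternatives, among them without *set-2* replicate 2 or WT replicate 1. *ND2* was at −0.35 and called lower without WT replicate 3 (adjusted p = 0.00226), and at −0.0033 without WT replicate 1. *ND1* and *ND4* were each called higher in 1 alternative.

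Paralogs and partners outside the 40 genes were added to place them. Of 5 other nuclear subunits 2 fell and 0 rose, beside 21.1% lower and 20.3% higher among all genes tested. *nduf-2.2*, the autosomal paralog of *gas-1*, had 173.3, 166.1 and 174.2 CPM in *set-2* libraries, against 185.2, 192.9 and 190.0 CPM in WT libraries. It fell, with a log2 fold change of −0.15 (adjusted p = 0.00852), and *gas-1* supplied 12.9% of this pair per exon length in *set-2* and 7.24% in WT. *mai-2*, a homologue of the mammalian ATP synthase inhibitor, fell with a log2 fold change of −0.27 (adjusted p = 0.00109). These genes are named after their values had been seen.

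Upstream of the chain, the TCA cycle list held the largest change of these pathway lists. Of its 19 genes 2 rose (10.5%) and 6 fell (31.6%), beside 20.3% higher and 21.1% lower among all genes tested. The median log2 fold change of the list was −0.08. Without *set-2* replicate 3 or WT replicate 3, 1 rose, and without *set-2* replicate 1, *set-2* replicate 3 or WT replicate 2, 4 fell. *suca-1*, the X-linked β subunit of the ADP-forming succinyl-CoA ligase, had 141.3, 127.7 and 142.5 CPM in *set-2* libraries, against 35.2, 39.2 and 35.1 CPM in WT libraries. Its log2 fold change was 1.91 (SE 0.0573, adjusted p = 5.26e-09), a 3.76-fold rise. *sucg-1*, the autosomal GDP-forming copy, had 170.8, 155.2 and 166.7 CPM in *set-2* libraries, against 195.4, 202.6 and 209.1 CPM in WT libraries, and fell with a log2 fold change of −0.30 (adjusted p = 3.47e-04). The share of *suca-1* in the pair per exon length was thus 41.8% in *set-2* and 13.4% in WT. *fum-1*, the fumarase that follows complex II in the cycle, had 67.5, 68.3 and 74.0 CPM in *set-2* libraries, against 104.5, 113.0 and 98.7 CPM in WT libraries. Its log2 fold change of −0.59 (SE 0.0549, adjusted p = 1.79e-05) passed the fold threshold, but ranged from −0.64 to −0.54 and fell short of it in 5 of 13 alternatives, keeping its call at the adjusted p. *mdh-2*, the malate dehydrogenase of the next step, fell with a log2 fold change of −0.43 (adjusted p = 2.99e-04). *sucg-1* and *mdh-2* are likewise named after their values had been seen.

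Genes that build or supply the chain moved little, and several of their calls rested on single libraries. Of 17 assembly factors 4 rose (23.5%) and 0 fell, beside 20.3% higher and 21.1% lower among all genes tested. *coa-5* rose by the most, with a log2 fold change of 0.36 (adjusted p = 3.3e-04). Without WT replicate 1, 2 of the 17 were called higher, and without WT replicate 2, *coa-5* alone, while the alternatives reached at most 7. Of 9 genes tested for ubiquinone synthesis and cytochrome c 2 rose (22.2%, near the share of all genes tested) and 0 fell. The weaker of them, *coq-8*, lost its call in 9 of 13 alternatives, including each that left out a library, and 1 gene of the list was called lower without *set-2* replicate 1 or WT replicate 1. *coq-5* led, with a log2 fold change of 0.26 (adjusted p = 5.85e-04), and the cytochrome c gene *cyc-2.1* had 459.7 CPM in *set-2* and 498.0 CPM in WT, which did not pass, while its copy *cyc-2.2* was at 0 in all libraries. Of 11 genes for mitochondrial transcription, replication, quality control and fission or fusion, 7 rose (63.6%, beside 20.3% of all genes tested) and 0 fell. Only 4 rose without *set-2* replicate 2, *set-2* replicate 3 or WT replicate 1, since *rpom-1*, *drp-1* and *phb-1* then lost their calls. *polg-1*, the mitochondrial DNA polymerase, averaged 56.1 ± 1.81 CPM in *set-2* and 45.9 CPM in WT, a log2 fold change of 0.29 (adjusted p = 5.89e-04). These rises were small, and none of the genes tested in these 3 lists passed the fold threshold. Among the carriers that exchange ADP for ATP across the inner membrane, *ant-1.1* had 1884 CPM in *set-2* and 1848 CPM in WT and did not pass. *ant-1.3* rose, with a log2 fold change of 1.24 (adjusted p = 0.0171), at 0.829 CPM in *set-2* and 0.346 CPM in WT, and lost its call in 5 of 12 alternatives.

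**Figure D4:**
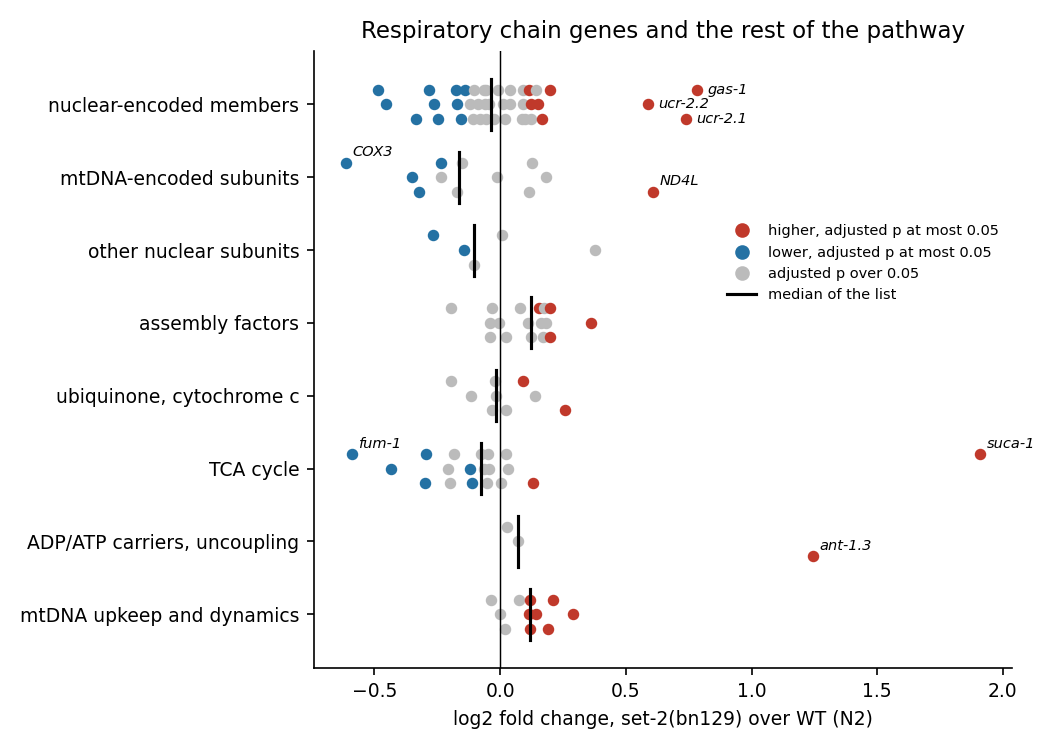
Log2 fold change in *set-2(bn129)* over WT gonads of the 40 nuclear subunit genes and of 7 other lists of the pathway, each point a gene tested and each black line the median of a list. Genes past the fold threshold are named, and *suca-1*, at 1.91, stands far from the rest.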

How the data were processed

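RNA sequencing libraries of *set-2(bn129)* and WT gonads, 3 of each, took their genotype and replicate number from the labels. The authors mapped reads with STAR 2.4.1d to genome release WS254, removed reads with a mapping quality under 10 (SAMtools 0.1.19) and counted reads per gene with HTSeq 0.7.2. The deposited counts are raw. The mode and strand setting of the counting are not given in the sources used here, so overlapping genes may share reads, and the removal of reads that map to several places lowers the counts of near-identical copies. The labels call the RNA polyadenylated, whereas the methods describe depletion of ribosomal RNA. A further deposited table, on the authors' own comparison, was not used.

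Counts of 46772 genes were deposited, and 0 rows named no gene. Genotypes were compared with edgeR 4.0.16 (R 4.3.3) after filterByExpr and TMM normalization by a quasi-likelihood test (glmQLFTest) without further covariates, with Benjamini-Hochberg adjustment over 9431 genes. A gene was called at an adjusted p of at most 0.05, and by fold where the log2 fold change was also beyond ±0.58. CPM are TMM-scaled, and RPKM divide them by the union exon length of Ensembl's WBcel235 annotation, in which 46549 identifiers were found. Mitochondrially encoded genes were named by the position of RefSeq genes on the same assembly. Intervals reflect only the variation within the fit. The fit was checked on simulated data.

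The members and lists were chosen with earlier results of these data known, so lists are described by counts and medians, without a test. Values per library are given for members called by fold, for the *asb*, *asg* and *ucr-2* copies, and for the largest rise and fall in each complex. Other pathway genes are named where called by fold or mitochondrially encoded. *nuo-6*, *isp-1*, *atp-1*, *atp-2* and the remaining pathway genes with values were chosen after their values were seen. Alternatives were another scaling (size factors of DESeq2, or upper quartile), library sizes without ribosomal RNA and mitochondrially encoded genes, no low count filter beyond 1 count, a minimum of 10 counts per library, the Wald test of DESeq2 1.42.0, a block for replicate number, each library left out, a log2 threshold of 1 and, for *asb-1*, counts in place of counts per length. They were run on the pathway genes too, which was decided after the data were seen.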

Additional observations from a re-analysis of the deposited data

How the results depend on the processing

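Of the 18 subunit genes called, 13 kept their call in all 13 alternatives of the fit, and 16 of the 22 others were called in none. *nuo-3*, *lpd-5*, *nduf-11*, *cox-6A* and *cox-6C* lost theirs in 3 to 7 alternatives. With single libraries left out, 5 to 10 subunit genes were called higher, the lowest without *set-2* replicate 1, 8 to 13 lower and 2 to 3 by fold, and their median log2 fold change ranged from −0.045 to −0.0153. The difference in the *asb-1* share ranged from 2.17 to 2.90 percentage points, and was 2.93 on counts. At a log2 threshold of 1, 0 subunit genes were called by fold. Genes near 0 changed sign, and the cause was not tested. *nuo-1* was at 0.0052 with upper quartile normalization, 0.0123 without a low count filter and −0.0247 to 0.0077 with single libraries left out (above 0 without *set-2* replicate 2 or WT replicate 2). With single libraries left out *cox-5B* ranged from −0.0035, without WT replicate 1, to 0.0552, *asb-1* from −0.0179, without WT replicate 1, to 0.037, and was −0.0113 without *set-2* replicate 1. *ND1* ranged from −0.0088, without *set-2* replicate 3, to 0.1929. *ND6* was at 0.0073 without a low count filter, and ranged from −0.1281 to 0.0476 with single libraries left out (above 0 without *set-2* replicate 1 or 2 or WT replicate 1).

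The replicate numbers did not pair the libraries: same-numbered libraries had correlations of −0.086, −0.048 and −0.171 in their deviations from the genotype means, and 0 of 6 correlated best with their own number. With the replicate block, 7 subunit genes were called higher, 9 lower and 2 by fold, with a median log2 fold change of −0.0363. Under it *nuo-3*, *nduf-11*, *cox-6C*, *cox-11*, *coq-8*, *ogdh-1*, *rpom-1* and *phb-1* lost their calls, *asg-1*, *ND5* and *COX2* gained one, and *ucr-2.2* fell short of the fold threshold.

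Depth limits the X-linked copies most, whose counts per library ran from 225 for *ucr-2.2* in WT replicate 1 to 1061 for *gas-1* in *set-2* replicate 3. WT replicate 1 held the lowest WT value of 31 of the 40 subunit genes and *set-2* replicate 2 the lowest mutant value of 23.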
